A study of Homo sapiens with 22 samples.

Results

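Among the sites where wild-type estrogen receptor alpha (ESR1) had peaks called with estradiol and none without it, 1467 seldom had a peak of the D538G mutant in the absence of hormone. They were selected on peak calls from 93599 merged regions on chromosomes 1 to 22 and X. A site was kept when it had a peak in all 4 wild-type estradiol (E2) libraries, in none of the 4 wild-type DMSO libraries, in at most 2 of the 6 D538G DMSO libraries and in at least 1 of the 12 D538G libraries. They are called seldom-bound sites below. In D538G clones treated with E2 these sites had a peak in 50.4% ± 35.2 of cases (SD over 6 libraries), from 9.34% to 95.5% of the sites in a library. A peak in 3 or more of these 6 libraries was found at 951 of the sites (64.8%), compared with 12.5% of all merged regions and 79.2% of all sites that wild type gained with estradiol. At least 1 was found at 1461 (99.6%), against 59.3% of all merged regions, but the rule largely set that count, since a site with no D538G DMSO peak was kept only if it had a D538G E2 peak.

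ESR1 is a nuclear receptor that binds DNA at estrogen response elements and through other transcription factors, and it drives growth and differentiation programmes in the uterine lining. Without hormone the wild-type receptor is largely inactive. Estradiol binds the ligand-binding domain and moves its helix 12 into the position that recruits coactivators and stabilises binding to chromatin. D538G lies near the start of helix 12 and is known to favour this active position without ligand. The rule used here fixed what was seen in the wild-type and D538G DMSO libraries. D538G binding under E2 entered it directly only through the need for 1 peak among 12 libraries. The E2 libraries are still not independent of the rule, since its DMSO limit was applied to the same D538G clones. Among sites gained by wild type, the mean number of D538G E2 libraries with a peak rose from 2.45 to 5.90 with the D538G DMSO count.

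The cells were Ishikawa cells, a human endometrial adenocarcinoma line, from which clones with FLAG-tagged ESR1 had been derived, either wild type (2 clones) or D538G (3 clones). Each clone was treated for 1 h with 10 nM E2 or 0.1% DMSO after at least 5 days in hormone-depleted medium, and the receptor was precipitated by its FLAG tag and sequenced (ChIP-seq). Each clone and treatment had 2 replicates, giving 4 wild-type E2, 4 wild-type DMSO, 6 D538G E2 and 6 D538G DMSO libraries, all carrying the tag. Each clone is a single derived line, and libraries of a clone are not fully independent. Nothing in the labels says whether the replicates were separate cultures, so spread between libraries may be partly technical.

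The peak lists ranged from 45 to 54903 peaks, and the read depth behind them is unknown. From a list alone, shallow sequencing, weak precipitation and a small number of occupied sites cannot be told apart. The peak names mention an input in replicate 1 of D538G clones 1 and 2, under both treatments, and in no other list. What this refers to is not stated. The labels and the peak names disagreed for 1 library: the peaks in the list labelled D538G E2 clone 2 replicate 1 are named as control by the authors, as are those of all 10 DMSO lists and of no other list among the 10 labelled E2. The label was kept. With that library and its DMSO partner left out of the merging, the rule and the reading, 1631 sites met the rule. Their share with a peak under E2 was 53.0% ± 38.6 (SD over 5 libraries), and 941 (57.7%) had a peak in 3 or more of the 5. The share difference from the often-bound sites, the counts of clones and of sites with more E2 than DMSO peaks, the left-out-clone gain at seldom-bound sites, the D538G rank difference, the rank bands and the test counts are also given below without this library or its pair. The remaining descriptions include it. A gene annotation in the build of the lists (hg19) was not used here, so sites are named by position only and no sequence is printed.

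Each clause of the rule removed a different share. Peaks in all 4 wild-type E2 lists were found in 4653 regions. Of these, 1922 also had a peak in a wild-type DMSO list, 1071 of them through the clone 1 replicate 2 DMSO list alone, which with 29118 peaks was far longer than the other wild-type DMSO lists of 45, 51 and 1080 peaks. The remaining 2731 regions are referred to as estrogen-gained. Among them, 741 had a peak in 0 of the 6 D538G DMSO libraries, 434 in 1, 337 in 2, 274 in 3, 298 in 4, 437 in 5 and 210 in all 6. The 1467 seldom-bound sites were 53.7% of the estrogen-gained regions, 45 others had no peak in any D538G library, and the 1219 with a peak in 3 to 6 D538G DMSO libraries serve as the comparison below and are called often-bound sites. Without the wild-type DMSO clone 1 replicate 2 list, 3803 regions were estrogen-gained, of which 1546 were seldom-bound and 2212 often-bound. The seldom-bound sites were then the smaller set. Leaving out any other wild-type DMSO list gave between 2732 and 2815 estrogen-gained regions.

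D538G binding without hormone at the seldom-bound sites was low by construction and was uneven between libraries. Peaks were present at 509 of the 1467 sites (34.7%) in clone 1 replicate 2, at 262 (17.9%) in clone 2 replicate 1, at 205 (14.0%) in clone 3 replicate 1, at 45 (3.07%) in each of clone 1 replicate 1 and clone 2 replicate 2, and at 42 (2.86%) in clone 3 replicate 2. The clone 1 replicate 2 library alone thus held 45.9% of all 1108 D538G DMSO peaks at these sites. Length did not order these shares: the clone 2 replicate 2 list covered 48576 regions and reached 45 of the sites, while the clone 2 replicate 1 list covered 3856 regions and reached 262. No D538G DMSO peak was present at 696 sites (47.4%), 1 at 434 (29.6%) and 2 at 337 (22.97%).

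With E2 the D538G clones occupied many of the same sites, again unevenly. Peaks were present at 1401 of the 1467 sites (95.5%) in clone 3 replicate 1 and at 1265 (86.2%) in clone 1 replicate 1. The share was 48.7% (715 sites) in clone 1 replicate 2, 45.9% (674 sites) in the library labelled clone 2 replicate 1, 16.4% (241 sites) in clone 3 replicate 2 and 9.34% (137 sites) in clone 2 replicate 2. Libraries of replicate number 1 lay above the replicate 2 library of the same clone in clones 1 and 3, and also in the pair of clone 2 that holds the library whose peak names go against its label. The long clone 3 replicate 2 list covered 43949 regions, 47.0% of all merged regions, and the seldom-bound sites were represented there at 16.4%. The 18951-region list of clone 3 replicate 1, which covered 20.2% of all regions, held nearly all of them.

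**Figure D1:**
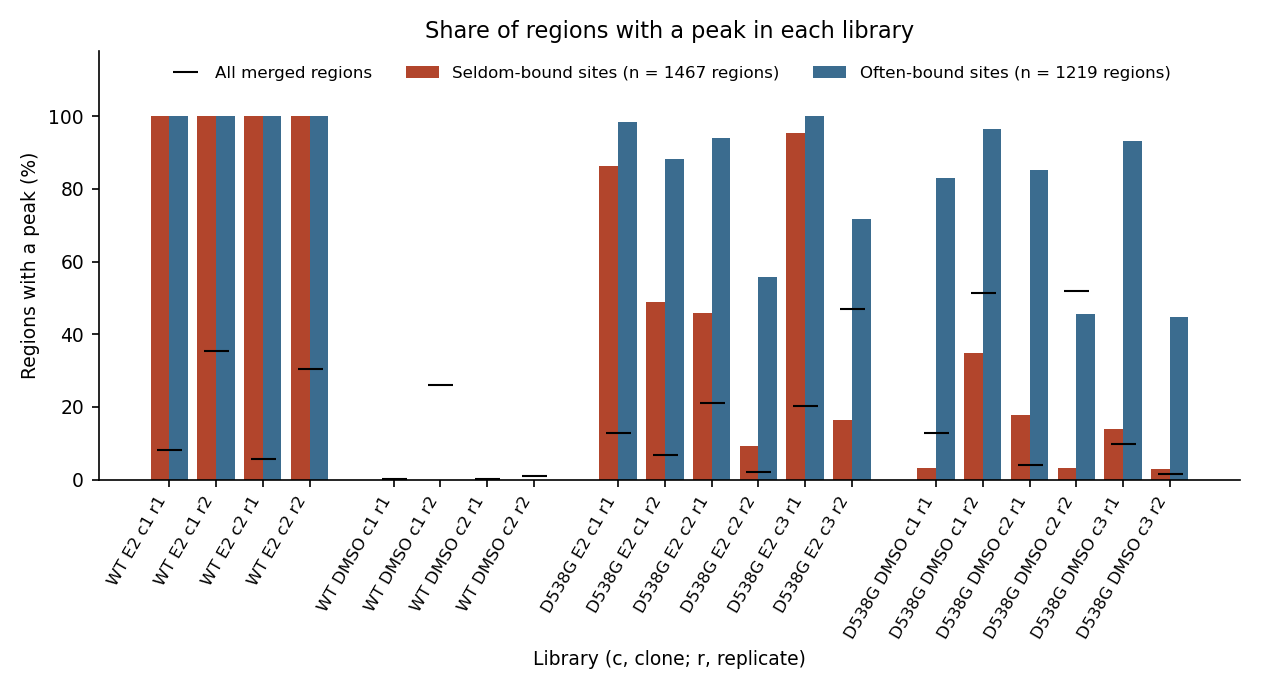
Percentage of seldom-bound sites (red bars) and often-bound sites (blue bars) with a peak in each of the 20 libraries, with the share of all merged regions as a black dash; c is the clone and r the replicate. Wild-type bars and the D538G DMSO bars follow from the rule, and in each of the 6 D538G E2 libraries the red bar, from 9.34% to 95.5%, is lower than the blue bar, from 55.8% to 99.9%.

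The often-bound sites, read in the same D538G E2 libraries, had a peak in 98.4%, 88.2%, 94.1%, 55.8%, 99.9% and 71.6% of cases in clone 1 replicates 1 and 2, clone 2 replicates 1 and 2 and clone 3 replicates 1 and 2. The seldom-bound share was lower in 6 of 6 libraries, with differences between −55.2 and −4.42 percentage points. The mean difference was −34.3 ± 20.9 points (SD, n = 6 libraries). With the clone 2 replicate 1 pair left out, which gave 1631 seldom-bound sites, the difference was −31.9 points and was negative in each of the 5 E2 libraries that remained. Within replicate number 1 it was −21.6 points and within replicate number 2 −47.0 points. No p-value was computed for these shares, since the sites had been chosen with results of these data in view. The sets were also split on D538G DMSO peaks of the same clones, which favours a lower share at the seldom-bound sites.

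Most sites were occupied under E2 in more than 1 mutant clone. A D538G E2 peak was present in all 3 clones at 663 sites (45.2%), in 2 clones at 611 (41.6%), in 1 clone at 187 (12.7%) and in none at 6 (0.409%). Among the often-bound sites 94.0% had one in all 3 clones. The count for all 3 clones rested on the library labelled clone 2 replicate 1, since clone 2 replicate 2 reached 137 sites. With that E2 library not read, the same 1467 sites had a peak in all 3 clones at 133 (9.07%), in 2 at 1099 (74.9%) and in 1 at 228 (15.5%), and 55.6% of the often-bound sites had one in all 3. With the pair left out throughout, it was 191 of 1631 seldom-bound sites (11.7%) and 58.8% of the often-bound sites. The most frequent combination was a peak in both clone 1 libraries, clone 2 replicate 1 and clone 3 replicate 1, found at 339 sites (23.1%). The next was a peak in clone 1 replicate 1 and clone 3 replicate 1 alone, at 296 sites (20.2%). Both of these libraries had a peak at 1220 sites (83.2%), and neither had one at 21 (1.43%).

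Counted site by site, D538G peaks were present in more E2 than DMSO libraries at 1388 of the 1467 seldom-bound sites (94.6%), in equal numbers at 67 and in fewer at 12. The same count was 637 of 1219 (52.3%) for the often-bound sites and 25.4% over all merged regions. Without the clone 2 replicate 1 pair it was 1526 of 1631 (93.6%), 40.1% and 22.7%. The limit of 2 DMSO libraries favours this excess, so it is given as a description. The 696 sites with no D538G DMSO peak had 1 E2 library in 103 cases, 2 in 236, 3 in 191, 4 in 164 and 5 in 2.

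**Figure D2:**
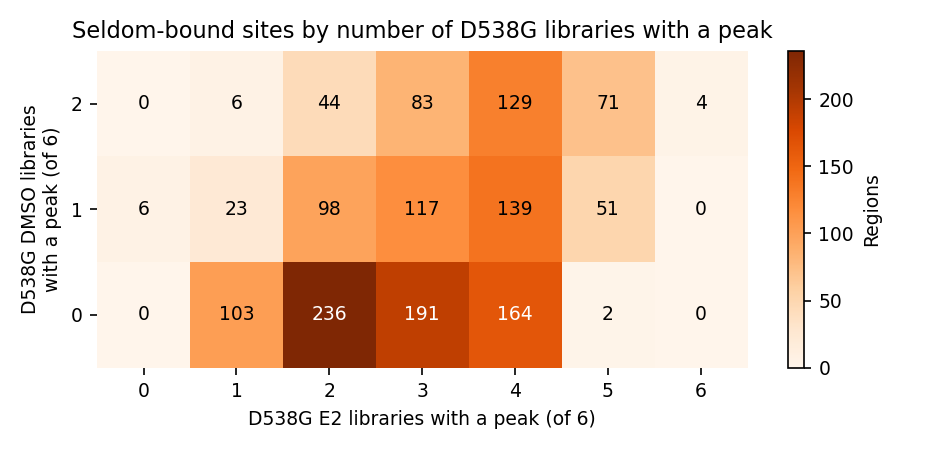
Number of seldom-bound sites by how many of the 6 D538G E2 libraries (horizontal) and of the 6 D538G DMSO libraries (vertical) had a peak. The fullest cell holds 236 sites with 2 E2 peaks and 0 DMSO peaks, and the 6 sites with no E2 peak each had 1 DMSO peak.

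Because the rule used the D538G DMSO libraries, the E2 response was also read in clones that had no part in the choice. Each D538G clone was left out in turn, sites were chosen as estrogen-gained with at most 1 peak among the other 4 D538G DMSO libraries, and the left-out clone was read. In clone 1, 1552 sites were chosen, and their share with a peak was 9.21% under DMSO and 83.8% under E2 in replicate 1, and 39.1% and 48.1% in replicate 2. In clone 2, 1344 sites gave 19.8% under DMSO and 43.7% under E2 in replicate 1, and 3.65% and 9.003% in replicate 2. In clone 3, 1412 sites gave 16.6% under DMSO and 92.6% under E2 in replicate 1, and 5.03% and 13.0% in replicate 2. The share was higher under E2 in 6 of 6 pairs of the same clone and replicate number. Matched across replicate numbers, E2 replicate 2 was below DMSO replicate 1 in clone 2 (9.003% against 19.8%) and clone 3 (13.0% against 16.6%). Every other such match was higher under E2. List lengths also differed within the pairs. In clone 2 replicate 1 the E2 list covered more regions than its DMSO partner (19791 against 3856). The same held in clone 3 replicates 1 (18951 against 9175) and 2 (43949 against 1516). Both lists of clone 1 replicate 1 were of near equal length (12082 and 11904). The E2 list was shorter in replicate 2 of clone 1 (6203 against 47932) and of clone 2 (1876 against 48576). The part of list length was not tested.

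The gain under E2 in the left-out clone was 74.5 and 76.0 points in replicate 1 of clones 1 and 3, 23.9 points in replicate 1 of clone 2, and between 5.36 and 9.02 points in the replicate 2 pairs. It averaged 32.8 ± 33.5 points (SD, n = 6 pairs), 58.1 points over the 3 pairs of replicate number 1 and 7.44 points over the 3 of replicate number 2. The often-bound sites chosen in the same way, with peaks in at least 2 of the other 4 DMSO libraries, gained 15.1 ± 11.4 points (SD, n = 6 pairs), with 17.1 points in replicate number 1 and 13.0 in replicate number 2. The often-bound sites had less room to gain. Under DMSO they already had a peak in 67.7% of cases on average (39.1% to 91.3%), against 15.6% (3.65% to 39.1%) at the seldom-bound sites. The difference between both gains was 17.7 ± 32.9 points and was positive in 4 of 6 pairs, which is within the spread between pairs. In replicate 2 of clones 2 and 3 the often-bound sites gained more, with differences of −5.10 and −23.5 points. In the E2 libraries alone the left-out clones again had a lower share at the seldom-bound than at the often-bound sites in 6 of 6 libraries, with a mean difference of −34.4 ± 19.4 points (SD, n = 6). Without the clone 2 replicate 1 pair among the averages, the gain at seldom-bound sites was 34.6 points.

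**Figure D3:**
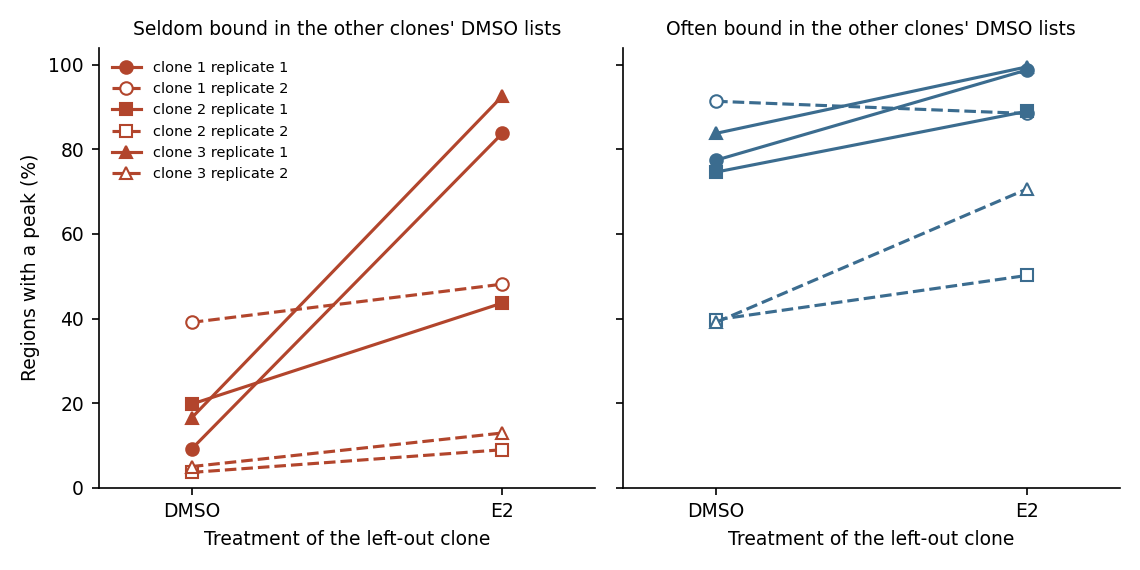
Percentage of sites with a peak in the left-out D538G clone under DMSO and under E2, for sites seldom bound (left, red) or often bound (right, blue) in the DMSO libraries of the other clones; each line joins the 2 libraries of a clone and replicate, filled symbols for replicate 1 and open symbols for replicate 2. On the left the clone 1 and clone 3 replicate 1 lines climb to 83.8% and 92.6%, and the replicate 2 lines gain between 5.36 and 9.02 points.

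The strength of the sites was compared by the rank of the strongest peak within its own list, by the authors' signal value, with 100 for the strongest peak. In the wild-type E2 lists the seldom-bound sites had median percentiles of 56.6 and 47.1 in clone 1 replicates 1 and 2, and 45.1 and 62.7 in clone 2 replicates 1 and 2. These lay near the middle of each list, where all regions had medians of 51.0 to 52.7. The often-bound sites had medians of 74.1, 75.3, 65.7 and 80.9 in the same order. The seldom-bound sites were lower in 4 of 4 wild-type E2 lists, by 21.1 ± 4.91 percentile points (SD, n = 4). Against only those sites with peaks in 5 or 6 D538G DMSO libraries the difference was −27.3 points.

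In the D538G E2 lists, over the sites that had a peak there, the medians were 62.4 and 45.1 in clone 1 replicates 1 and 2, 54.1 and 37.6 in clone 2, and 67.6 and 80.7 in clone 3. The often-bound sites reached 88.3, 80.9, 83.9, 64.2, 90.4 and 93.0 in those lists. The seldom-bound sites ranked lower in 6 of 6, by 25.5 ± 7.83 percentile points (SD, n = 6), and the difference was −24.0 points over 5 lists without the clone 2 replicate 1 pair. Where they were occupied without hormone, their median percentile in the D538G DMSO lists was between 35.8 and 49.4, and that of the often-bound sites between 57.9 and 91.6. The sets were split on peaks in these same DMSO lists. That choice favours lower ranks at the seldom-bound sites there, and may do so in the E2 lists of the same clones.

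Both the wild-type rank and the number of D538G E2 libraries rose in steps with the number of D538G DMSO libraries. The median of the mean wild-type E2 percentile was 46.3 for estrogen-gained regions with 0 DMSO libraries, 54.1 with 1, 59.0 with 2, 62.7 with 3, 65.9 with 4, 74.1 with 5 and 84.4 with 6. The mean number of D538G E2 libraries was 2.45, 3.18, 3.67, 4.25, 4.88, 5.34 and 5.90 in the same order. The sites just inside the limit, with 2 DMSO libraries, differed from those just outside, with 3, by less than 4 percentile points of median rank, and the quartiles of the groups overlapped (42.4 to 71.5 against 47.7 to 74.6). These values describe the range that the rule divided.

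**Figure D4:**
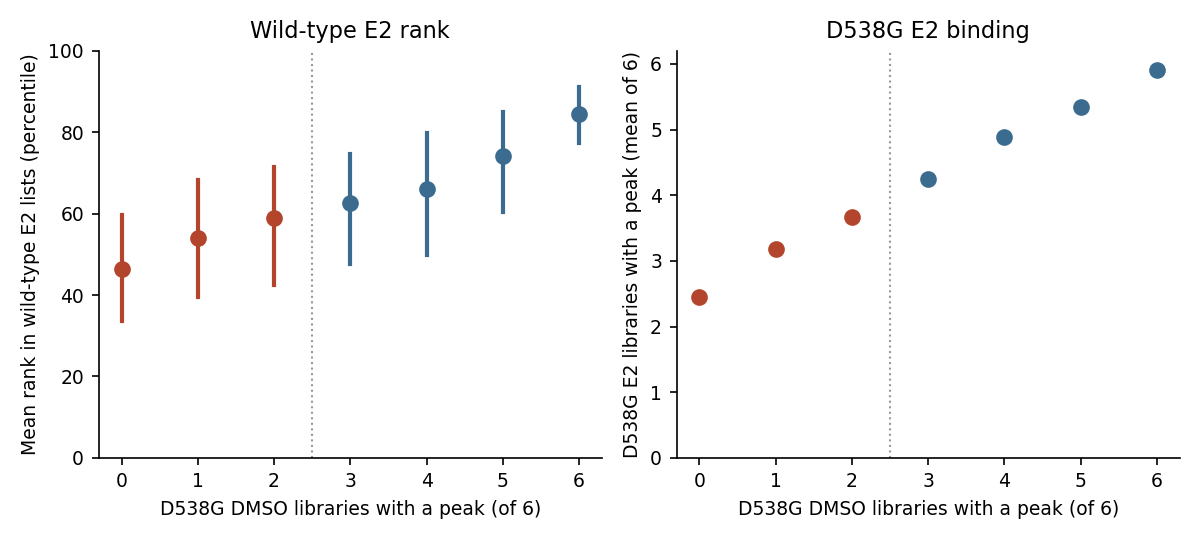
Estrogen-gained regions by number of D538G DMSO libraries with a peak (0 to 6); left, median (point) and quartiles (line) of the mean rank percentile over the 4 wild-type E2 lists; right, mean number of D538G E2 libraries with a peak. Red marks the classes of the seldom-bound sites and blue those of the often-bound sites, the class at 0 includes the 45 regions with no D538G peak, and both measures climb across the dotted limit, from 46.3 to 84.4 and from 2.45 to 5.90.

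Since strength in wild type differed between the sets, D538G E2 binding was compared within 4 rank bands of nearly equal size, cut on the mean wild-type E2 percentile of all estrogen-gained regions. The weakest band (percentiles 1.81 to 43.1) held 516 seldom-bound and 142 often-bound sites, the second (43.1 to 59.8) 438 and 228, the third (59.8 to 76.5) 345 and 334, and the strongest (76.5 to 98.0) 168 and 515. Averaged over the 6 D538G E2 libraries, 46.0% of seldom-bound and 76.6% of often-bound sites had a peak in the weakest band. The shares were 49.3% and 79.5% in the second, 53.4% and 82.9% in the third, and 60.3% and 90.3% in the strongest. The mean difference was between −30.6 and −29.5 points in all 4 bands and negative in 6 of 6 libraries in each. The SD of that difference over the 6 libraries was between 17.7 and 21.4 points. Both sets were defined by D538G DMSO peaks of the same clones. The bands therefore do not separate site strength from that choice, and the cause of the difference was not tested. Without the clone 2 replicate 1 pair the mean differences were between −29.5 and −26.8 points and negative in 5 of 5 libraries in each band. With all libraries, averaging over the bands moved the difference from −34.3 to −30.1 points.

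**Figure D5:**
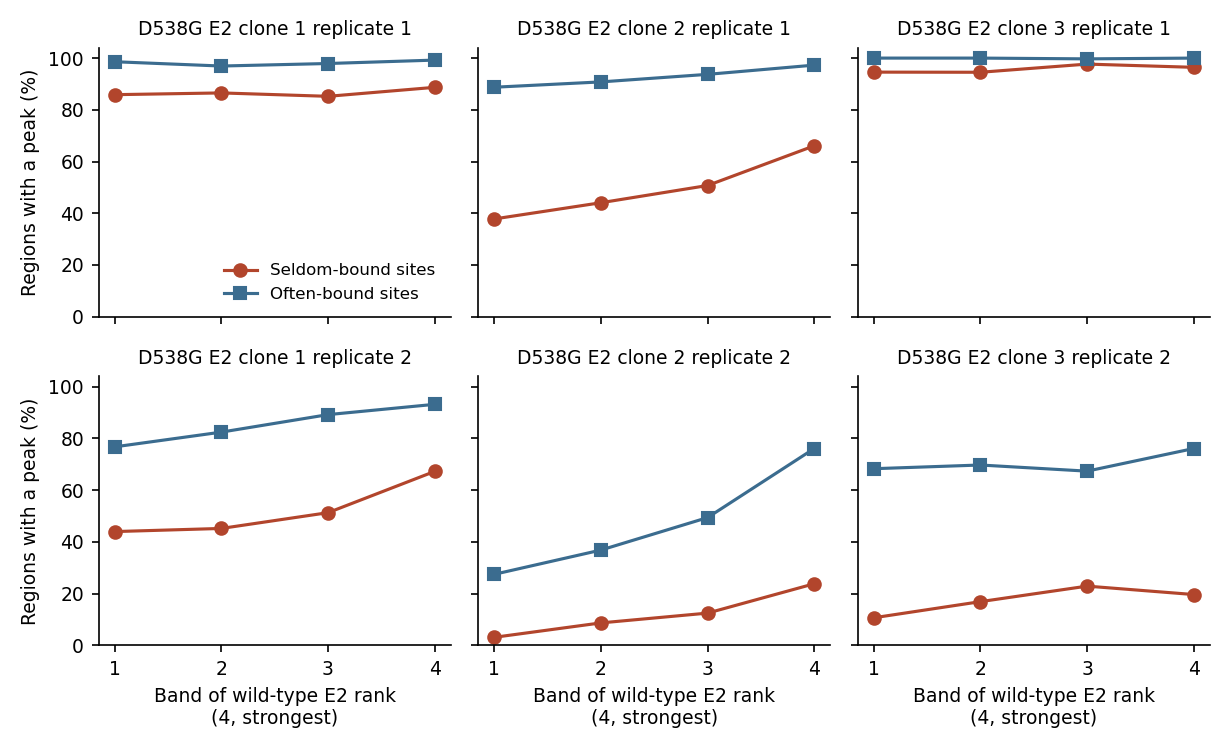
Percentage of seldom-bound (red circles) and often-bound (blue squares) sites with a peak in each of the 6 D538G E2 libraries, by band of the mean rank percentile in the 4 wild-type E2 lists (4 is the strongest). The red line lies below the blue line in each band and library, narrowly in clone 3 replicate 1 and widely in clone 3 replicate 2.

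The 5 seldom-bound sites ranked highest in wild type under E2 had between 3 and 5 D538G E2 peaks. The first, a 746 bp region on chromosome 7 from 29588329 to 29589074, ranked at percentiles 99.5 and 91.4 in clone 1 and 99.7 and 96.7 in clone 2 (replicates 1 and 2). It had no D538G DMSO peak, and 3 D538G E2 peaks at percentiles 53.6 (clone 1 replicate 1), 55.2 (clone 2 replicate 1) and 76.6 (clone 3 replicate 1). The second lay on chromosome X from 47142069 to 47142926 with a mean wild-type percentile of 96.8, 4 D538G E2 peaks at percentiles 37.1 to 85.5 and 2 DMSO peaks at 25.6 and 51.9. The others lay on chromosome 14 from 65584664 to 65585543 (4 E2 and 1 DMSO peak), chromosome 3 from 170061519 to 170062436 (5 and 1) and chromosome 6 from 108183423 to 108184298 (4 and 2), with mean wild-type percentiles of 95.3, 95.1 and 94.4. Of the seldom-bound sites 185 (12.6%) had a mean wild-type percentile of 75 or more, against 539 (44.2%) of the often-bound sites.

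Of the sites with no D538G DMSO peak, 2 had a peak in 5 of 6 D538G E2 libraries. On chromosome 2 from 205219875 to 205220407 the D538G E2 peaks ranked at percentiles 90.2 and 66.2 in clone 1, 79.0 and 35.1 in clone 2 and 58.2 in clone 3 replicate 1. Its wild-type E2 percentiles were 25.4 and 67.3 in clone 1 and 14.3 and 83.6 in clone 2. On chromosome 9 from 98026730 to 98027379 they were 87.0, 42.2, 78.8, 9.47 and 51.5 in the mutant and 22.1, 46.3, 9.85 and 82.2 in wild type. Both sites ranked low in the replicate 1 wild-type lists and high in that of clone 2 replicate 2. The next 3 by the naming rule, each with 4 E2 peaks and mean wild-type percentiles of 90.2, 86.4 and 85.7, were a 1563 bp region of chromosome 13 (72447707 to 72449269) and a pair on chromosome 4 (93289640 to 93290354, and 80571917 to 80572634).

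At the other end, 6 sites had no D538G E2 peak at all and entered through 1 DMSO peak, which for the 5 named was in clone 1 replicate 2. The strongest of them in wild type, on chromosome 13 from 27050121 to 27050701, ranked at percentiles 93.2, 94.7, 70.8 and 91.3 in the 4 wild-type E2 lists, and its D538G DMSO peak at 39.7. The second, on chromosome 18 from 3639381 to 3640116, ranked at 55.6, 78.4, 67.3 and 84.4, and its DMSO peak at 15.3. The remaining 3 were a pair on chromosome 6 (167651677 to 167652215, and 159288330 to 159288939) and a region of chromosome 11 (121560016 to 121560321), with mean wild-type percentiles of 53.1, 37.6 and 30.0.

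Presence of a peak was tested for every merged region by Fisher's exact test on the number of libraries, with Benjamini-Hochberg adjustment over all regions called in 2 or more of the libraries that entered the test (2-sided). For D538G E2 against D538G DMSO, 2 of the 1358 seldom-bound sites tested had an unadjusted p under 0.05, the 2 described above on chromosomes 2 and 9 (Fisher's exact p = 0.0152 each), and none passed the adjusted threshold. The background was 9 of 44916 regions bound more often under E2, or 0.0200%. Over that many regions the smallest p possible here, 0.00216 (Fisher's exact test), could pass adjustment only if a great many regions shared it. The rule used these DMSO libraries, so nothing is read from the count. The count depended on which libraries entered. Without D538G E2 clone 3 replicate 2 it was 209, and without clone 2 replicate 2 it was 161. Leaving out an E2 library also changes which peak counts reach the threshold. With 6 libraries a side, 4 E2 peaks against 0 DMSO peaks gave Fisher's exact p = 0.0606, just short of it, at 164 sites. The count was 57 without the clone 2 replicate 1 pair. With a sign test within the 6 clone-and-replicate pairs it was 0. Only a site with 6 E2 and no DMSO peaks could reach p under 0.05 there, and no seldom-bound site had that pattern.

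For D538G E2 against wild-type E2, all 1467 sites were tested and 138 (9.41%) were bound less often in D538G at an unadjusted p under 0.05, against a background of 0.890% (318 of 35726 regions). None passed after adjustment, where the smallest adjusted p over all regions was 1. The smallest p possible with 6 against 4 libraries, 0.00476 (Fisher's exact test), could pass only if a great many regions shared it. The rule left out the 45 estrogen-gained regions with no D538G peak, which the background includes along with the 138. It also set the wild-type count at 4 of 4, so these 138 are simply the sites with 0 or 1 D538G E2 peak (Fisher's exact p = 0.00476 and 0.0476). Of the 132 with exactly 1, the peak was in clone 3 replicate 1 at 94. The count was 428 without D538G E2 clone 1 replicate 1, 426 without clone 3 replicate 1 and 281 without wild-type E2 clone 2 replicate 1. Without the D538G clone 2 replicate 1 pair it was 156. For the often-bound sites it was 0.

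Peak shape and position were compared last. In the wild-type E2 lists the peaks at seldom-bound sites had median widths of 378, 434, 323 and 457 bp in clone 1 replicates 1 and 2 and clone 2 replicates 1 and 2, against 459, 633, 393 and 584 bp at often-bound sites. Those at seldom-bound sites were narrower than those at often-bound sites in 4 of 4 lists. Over all regions the medians were 355, 489, 348 and 456 bp in the same order, near those of the seldom-bound sites. The D538G E2 summits, where a site was occupied, lay close to the wild-type ones: the median distance from the median summit of the 4 wild-type E2 lists was 19 to 42 bp over the 6 libraries, against 17 to 33 bp at the often-bound sites. Between 56.4% and 83.3% of the occupied sites had their summit within 50 bp. For the wild-type E2 lists, each against the median of the other 3, the distances were 24 to 28 bp.

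The median distance from a seldom-bound site to the next was 155 kb, and 253 (17.2%) had another within 10 kb. For the often-bound sites the distance was 387 kb, and 106 (8.70%) had another of their kind within 10 kb. The sets differ in size, and no test was made. Of the seldom-bound sites 98 (6.68%) lay within 10 kb of an often-bound site, and 305 (20.8%) within 10 kb of any region with a peak in 3 or more D538G DMSO libraries.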

How the data were processed

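Anti-FLAG ChIP-seq peak lists of 20 libraries were used; 2 input libraries were not analysed here. Bowtie, MACS2, DESeq2 and hg19 are named in the submitters' processing notes, with no versions or roles. Filters are not given in the sources used here. Each deposited list holds the peaks of 1 library in narrowPeak layout, with the authors' signal value (what it is relative to is not given), the authors' −log10 p (lowest 10.0) and −log10 q, a summit offset, and a deposited score that follows the −log10 p and was not used.

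Of 356472 peaks, 356437 lay on chromosomes 1 to 22 and X. Peaks overlapping by at least 1 bp were merged (pandas 2.3.3, NumPy 2.4.6; the result was the same with bedtools 2.31.1), and positions are 1-based in hg19. Fisher's exact tests used SciPy 1.17.1 and were tested on simulated presence calls. Ranks are percentiles within a list, and a site takes its strongest peak. Named sites were the 5 with most D538G E2 peaks and no D538G DMSO peak, the 5 with no D538G E2 peak ranked highest in wild type, and the 5 ranked highest in wild type. E2 and DMSO libraries pair by clone, per the labels. The pairs used here also share the replicate number, and the labels do not say whether such libraries were prepared together. The largest Jaccard index between 2 lists was 0.714 (wild-type E2 replicate 2 of clones 1 and 2). No list thus duplicated another, and each was counted as a separate library, which does not show that they are independent. The sites, sets and tests were chosen with earlier results of these data known. Sequences at the sites were not used here.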

Additional observations from a re-analysis of the deposited data

Results flagged for a closer look

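In the D538G E2, D538G DMSO and wild-type E2 groups, 8 combinations of group and measure (share of seldom-bound sites with a peak, their median rank, their median peak width) were examined for a value standing apart by Dixon's ratio, and 0 did. Of 15 regions outside chromosomes 1 to 22 and X, 0 had the pattern of the rule.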

How the results depend on the processing

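Of 178 alternatives to the 7 results, 160 stayed within the spread between libraries (for counts, within 1.5 times), 18 moved and 0 reversed. A count cannot reverse, and some alternatives left out a library that a result did not use. The spread was also wide. The left-out-clone gain counted as within it at both 58.1 points (replicate number 1) and 7.44 points (replicate number 2). This tally is therefore no measure of stability. Leaving out the clone 2 replicate 1 pair or its E2 library and the comparison within rank bands were chosen after seeing the data. The number of seldom-bound sites was 1353 with a −log10 p of at least 20, 1507 with windows of 100 bp around summits, and between 1396 and 2204 without 1 library, the highest without wild-type E2 clone 2 replicate 1. The count of seldom-bound sites bound more often under E2 in D538G moved from 2 to 4 at the stricter −log10 p, to 57 without the clone 2 replicate 1 pair, to 0 with the replicate block, and to between 2 and 209 without 1 library. It was 209 without D538G E2 clone 3 replicate 2, 161 without clone 2 replicate 2, 13 without clone 2 replicate 1 and 4 without clone 1 replicate 2. Without a D538G DMSO library it was 39 (clone 2 replicate 1), 16 (clone 1 replicate 2), 5 (clone 3 replicate 2) and 4 (clone 1 or clone 3 replicate 1), and without wild-type E2 clone 2 replicate 1 it was 5. The count of seldom-bound sites with an unadjusted Fisher's exact p under 0.05 for fewer E2 peaks in D538G was 138, and between 132 and 428 without 1 library. Without wild-type DMSO clone 1 replicate 2 the often-bound sites rose from 1219 to 2212. Against the sites with 5 or 6 D538G DMSO peaks, the wild-type rank difference was −27.3. The planned search for response elements and nearest genes was not run. No region passed the adjusted threshold under any alternative fitted with adjustment, and the paired test was not adjusted. With so few libraries even the smallest possible Fisher's exact p passes only if a great many regions share it. The absence of passing regions is therefore no measure of stability. For the count under E2 against DMSO, leaving out an E2 library also changes which peak counts reach the threshold. The cause of the shifts listed above was otherwise not tested. Unknown depth limits every statement about a missing peak, and a site without a peak is not shown to be unbound.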

Other observations

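The share of estrogen-gained regions that were seldom bound by D538G without hormone varied between chromosomes. Over the 19 chromosomes with 50 or more estrogen-gained regions it ran from 40.3% on chromosome 15 (29 of 72) to 67.9% on chromosome 18 (55 of 81), with a median of 53.9%. No test was made.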
